A study of Mus musculus with 12 samples.

Results

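Transcripts of 9 genes that encode tropomyosins and small LIM-domain proteins were followed in NIH3T3 cells, an established mouse fibroblast line. The genes were the tropomyosins Tpm1, Tpm2, Tpm3 and Tpm4, the four-and-a-half-LIM genes Fhl1, Fhl2 and Fhl3, and the cysteine- and glycine-rich protein genes Csrp1 and Csrp2. The genes, and the lists read beside them, were chosen with earlier results of these data known. Counts set beside the share of all probe sets or genes are therefore descriptions and not tests. Probe sets were taken by symbol, namely every one whose single symbol in the platform annotation was one of the 9. This gave 21 of the 45037 non-control probe sets on the array, and 9 of 18193 genes. Tpm1 and Tpm2 had 4 probe sets each, Tpm3 had 5, Fhl1 and Csrp1 had 2 each, and the other genes had 1.

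The cells had been infected with virus carrying Yap, Tead2-VP16, Tead2-EnR or a control vector, and each of the 6 groups had 2 arrays, so every SD below is over n = 2. Yap cells and Tead2-VP16 cells were harvested while proliferating, at slightly over the density at which normal cells are confluent, called high density here. Tead2-VP16 cells were also harvested at complete confluency. Tead2-EnR cells were harvested at 30% of their own confluency, called low density. Control cells were harvested at complete confluency and at 30% confluency. All 6 groups share the cell line and a viral infection. Tead2 is a DNA-binding factor of the Hippo pathway and Yap its coactivator, VP16 supplies a strong activation domain of viral origin, whereas EnR supplies the Engrailed repressor domain. The labels give confluency and not cell numbers, so groups at one confluency are not shown to have equal cell density, and the vector cannot be told apart from a density difference there either. No control or Tead2-EnR cells were taken at high density, so in comparisons with the Yap and Tead2-VP16 cells of that density the vector and the density cannot be told apart. Separate cultures behind the arrays are not stated in the labels, so p-values reflect spread among arrays that may be technical.

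Tropomyosins are coiled-coil proteins that lie end to end along actin filaments and decide which motors and severing proteins can reach them. Each tropomyosin gene gives several isoforms through alternative promoters and splicing, and fibroblasts carry them in stress fibres and in the cell cortex. FHL and CSRP proteins consist of little more than LIM domains, zinc-binding modules that dock onto other proteins, and they are found at actin filaments, at focal adhesions and in the nucleus. Several genes of both classes are known targets of serum response factor (SRF), which binds the CArG box, and Tead factors bind sites with the core GGAATG.

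Promoter windows ran from 250 bases before to 50 after an annotated RefSeq start (GRCm38.p6). The set of windows used here held 8 of the 9 genes, with 12 windows in all, and did not include Csrp2. The core GGAATG, searched on both strands, was in 1 member window, that of Tpm1, and in 14.7% of all 32851 windows. The CArG box, searched by its consensus on both strands, was in 3 member windows, 1 of Fhl1 and both of Fhl2, and in 1.63% of all windows. No window of a member held both motifs. These 4 windows are shown because they are the member windows that hold either motif. Each reads 5′ to 3′ on the gene's strand with the matches in capitals. A match is a description of the sequence, and binding was not measured.
Tpm1 (chr9:67049164-67049463, minus strand, GGAATG in capitals): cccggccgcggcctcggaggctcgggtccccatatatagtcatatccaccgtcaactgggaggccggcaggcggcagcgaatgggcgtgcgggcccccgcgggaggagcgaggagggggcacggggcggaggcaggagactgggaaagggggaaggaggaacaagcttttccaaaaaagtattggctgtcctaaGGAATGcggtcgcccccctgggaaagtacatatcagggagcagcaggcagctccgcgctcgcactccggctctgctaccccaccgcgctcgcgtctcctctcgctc
Fhl1 (chrX:56779433-56779732, plus strand, CArG box in capitals): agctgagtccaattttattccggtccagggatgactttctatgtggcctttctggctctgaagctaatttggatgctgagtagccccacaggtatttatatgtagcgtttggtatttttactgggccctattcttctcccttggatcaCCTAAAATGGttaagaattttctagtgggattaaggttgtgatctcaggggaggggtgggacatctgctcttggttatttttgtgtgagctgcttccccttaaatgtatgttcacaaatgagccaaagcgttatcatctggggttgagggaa
Fhl2 (chr1:43163912-43164211, minus strand, CArG box in capitals): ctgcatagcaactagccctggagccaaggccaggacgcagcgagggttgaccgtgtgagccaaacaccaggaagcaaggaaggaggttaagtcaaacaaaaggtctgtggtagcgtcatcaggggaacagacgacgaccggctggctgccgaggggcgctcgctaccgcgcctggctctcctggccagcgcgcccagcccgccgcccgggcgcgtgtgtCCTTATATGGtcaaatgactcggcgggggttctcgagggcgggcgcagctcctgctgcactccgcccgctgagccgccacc
Fhl2, other start (chr1:43196712-43197011, minus strand, CArG box in capitals): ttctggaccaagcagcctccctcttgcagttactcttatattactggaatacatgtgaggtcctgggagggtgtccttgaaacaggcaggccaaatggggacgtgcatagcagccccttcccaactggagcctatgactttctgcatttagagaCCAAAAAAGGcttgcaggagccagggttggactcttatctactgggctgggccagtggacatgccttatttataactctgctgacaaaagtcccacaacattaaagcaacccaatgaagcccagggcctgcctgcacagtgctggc

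Values are log2 of the deposited intensity, and a fold change is on the log2 scale, first group minus second, unless called a fold. A probe set was called at an adjusted p below 0.05 by limma, adjusted by Benjamini-Hochberg over all 45037 probe sets. Each gene is represented by its brightest probe set on average, called the lead. Across probe sets, the log2 values of paired arrays within each group correlated with r between 0.9970 and 0.9982. All 8 fibroblast markers, such as Col1a1 and Vim, were above the median probe set of 5.72, their summed intensity being 113898 to 115585 in confluent and 71292 to 72667 in low-density control. Of 8 striated muscle markers 3 were above the median and of 3 macrophage markers 0, with sums between 383.4 and 605.2 and between 56.3 and 77.6 over all arrays. For the transferrin receptor control, the log2 signal of the 3′ probe set minus that of the 5′ one, a sign of RNA quality, was 1.31 ± 0.07 with Yap, 1.23 ± 0.001 and 1.501 ± 0.06 with Tead2-VP16 at high density and at confluency, 1.12 ± 0.02 with Tead2-EnR, and 1.30 ± 0.19 and 0.98 ± 0.05 in confluent and low-density control. It was higher in confluent than in low-density cells. The same difference for the actin control was 0.23 and 0.27 in confluent control and Tead2-VP16, and 0.08 and 0.15 in low-density control and Tead2-EnR. For Gapdh it was not higher at confluency (-0.28 and -0.26, against -0.23 and -0.26). The part of RNA quality in the results was not tested. The Tead2 probe set was at 9.83 ± 0.02 in Tead2-EnR cells and 9.62 ± 0.01 in low-density control (adjusted p = 0.059), and at 9.32 ± 0.12 and 9.76 ± 0.002 in Tead2-VP16 cells at high density and at confluency, against 9.88 ± 0.02 in confluent control. The lead Yap1 probe set was at 9.66 ± 0.05 in Yap cells and 9.96 ± 0.02 in confluent control. Both the Tead2 and this Yap1 probe set were called lower with Yap and with Tead2-VP16 at high density than in confluent control. Whether these probe sets lie within the introduced sequences is not given in the sources used here, so they do not check the labels.

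**Figure D1:**
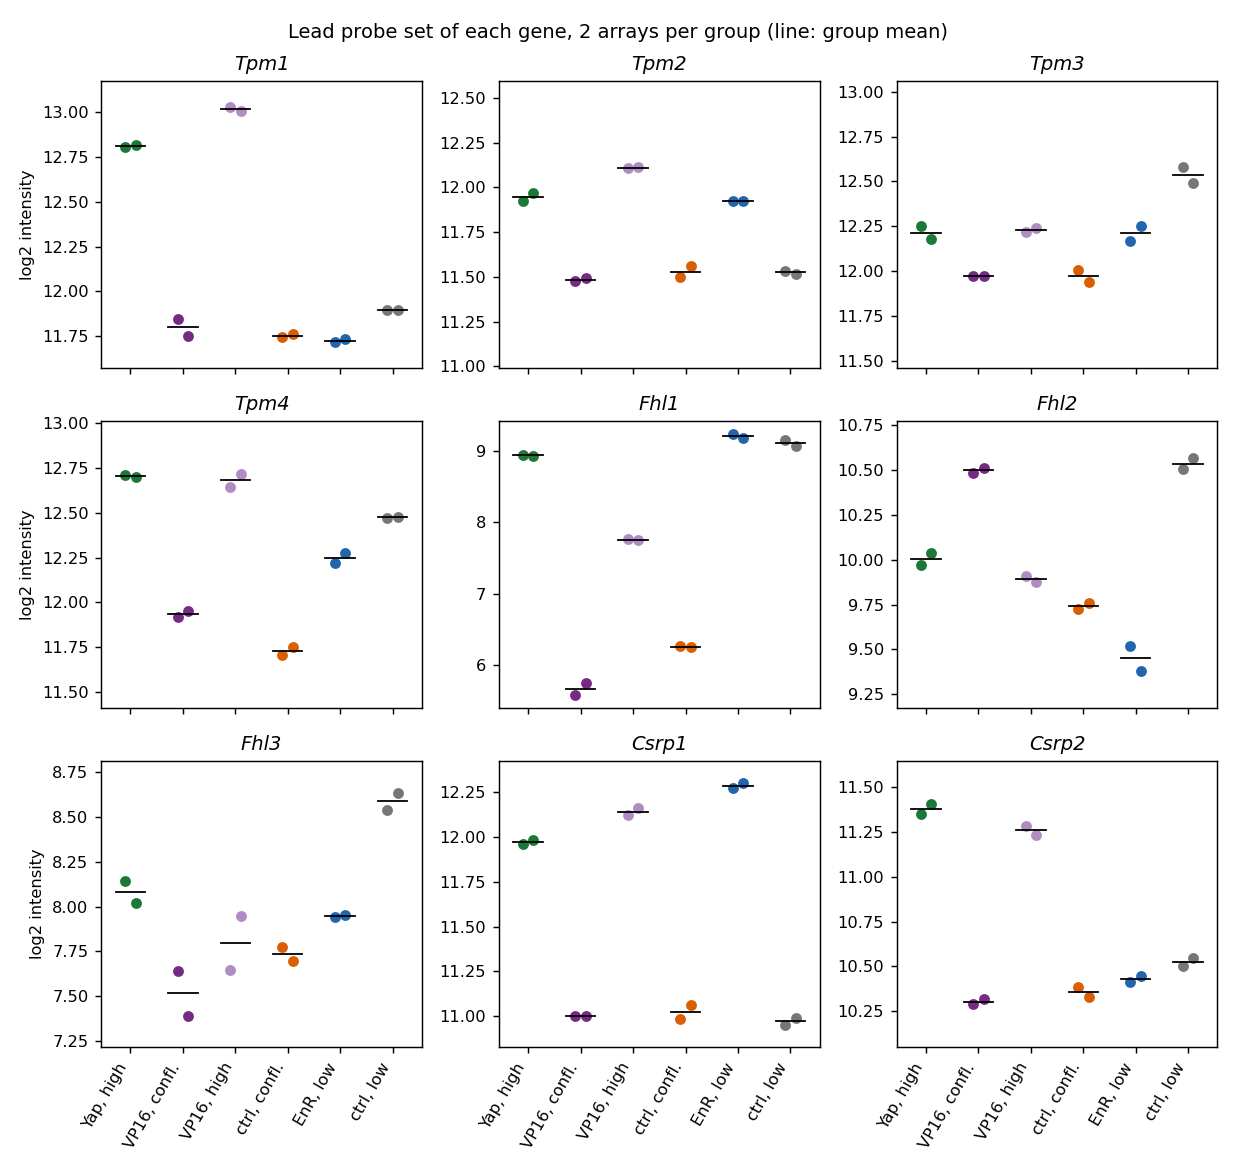
Log2 intensity of the lead probe set of each of the 9 genes (vertical axis, own range per gene) in the 6 groups, with a point per array and a line at the group mean; VP16 and EnR are the Tead2 fusions, ctrl is control and confl. is complete confluency. Tpm1, Csrp1 and Csrp2 are high in both high-density groups and low in both control groups, Csrp1 is also high with Tead2-EnR, and Fhl1 spans the widest range, from 5.59 to 9.24.

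Tpm1 was set apart by the high-density cells. This gene gives the long tropomyosins of stress fibres as well as the striated muscle form. Its lead probe set (1423049_a_at) read 12.80 and 12.82 in Yap cells and 13.03 and 13.01 in Tead2-VP16 cells at high density. It read 11.85 and 11.75 in Tead2-VP16 cells at confluency, 11.72 and 11.73 in Tead2-EnR cells, 11.74 and 11.76 in confluent control and 11.89 and 11.90 in low-density control. Every array of the Yap and Tead2-VP16 high-density groups lay above every other array. Against confluent control the gene rose 2.08-fold with Yap (log2 1.06 ± 0.06, SE, adjusted p = 4.1e-06 by limma) and 2.40-fold with Tead2-VP16 (1.26 ± 0.06, adjusted p = 1.3e-06). Against low-density control it was also higher, by 0.92 with Yap and 1.12 with Tead2-VP16 at high density. Tead2-VP16 cells at confluency stood at -1.22 against the same cells at high density (adjusted p = 3.4e-06) and 0.05 against confluent control (interval -0.09 to 0.18, adjusted p = 0.74). Confluent and low-density control differed by -0.14 (adjusted p = 0.089), and Tead2-EnR and low-density control by -0.17 (adjusted p = 0.060). Of 8 other settings of the fit, 5 called the difference between the controls (0.0033 to 0.043) and 4 that with Tead2-EnR (9.9e-04 to 0.025).

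The other Tpm1 probe sets did not all move with the lead. Probe set 1423721_at, also bright, followed it with 1.11 for Yap and 1.28 for Tead2-VP16 at high density against confluent control, and the log2 values of both correlated with r = 0.998 over the 12 arrays. Its change of -0.17 between confluent and low-density control was called (adjusted p = 0.048), a call lost when any one of the 12 arrays was left out (adjusted p 0.051 to 0.155). Probe set 1456623_at, at a mean of 6.47, read 6.21 and 6.24 with Tead2-EnR, against 6.85 and 6.61 in low-density control, a difference of -0.50 (adjusted p = 0.0042). In confluent control it was at -0.36 against low-density control (adjusted p = 0.017), lost without the first low-density array or either confluent one (0.053 to 0.129). With Yap it was at 0.35 against confluent control (adjusted p = 0.044), lost without any of 8 arrays, those of Yap, Tead2-EnR, confluent control and confluent Tead2-VP16 (0.056 to 0.178), and with Tead2-VP16 at high density at 0.03 (adjusted p = 0.91). Against low-density control it was at -0.34 with Tead2-VP16 at high density (adjusted p = 0.029), where the lead was at 1.12, and this call was lost without the first array of either group (0.193 to 0.221). The dimmest, 1447713_at at a mean of 3.58, was called by limma in 0 of the 9 comparisons, and had an unadjusted p under 0.05 in 0. The part of the transcript that each probe set reads is not given in the sources used here.

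Tpm2, whose long isoforms are known from smooth and skeletal muscle and from stress fibres, was higher on its lead in the high-density cells and also with Tead2-EnR. Its lead (1419738_a_at) read 11.93 and 11.97 with Yap, 12.11 on both arrays of Tead2-VP16 at high density, 11.47 and 11.50 with Tead2-VP16 at confluency, 11.92 on both arrays with Tead2-EnR, 11.50 and 11.56 in confluent control, and 11.53 and 11.52 in low-density control. The high-density and Tead2-EnR arrays lay above all others without overlap. Tead2-EnR was 0.40 ± 0.06 above low-density control (adjusted p = 5.2e-04), a 1.32-fold rise. Against confluent control the rise was 0.42 with Yap (adjusted p = 8.8e-04) and 0.58 with Tead2-VP16 at high density (adjusted p = 1.1e-04). Confluent and low-density control had the same mean, 11.53, and their difference had an interval of -0.12 to 0.13.

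The remaining Tpm2 probe sets tracked the lead with r = 0.973 (1425028_a_at), 0.871 (1449577_x_at) and 0.582 (1419739_at) over the 12 arrays. All were called higher in both high-density groups than in confluent control. The rise was 0.47, 0.54 and 0.73 with Yap and 0.77, 0.81 and 0.72 with Tead2-VP16. Probe sets 1425028_a_at and 1449577_x_at were raised with Tead2-EnR as well, by 0.41 and 0.35. The call on 1449577_x_at (adjusted p = 0.021) was lost when any array of Tead2-EnR or of low-density control was left out (0.073 to 0.079). Probe set 1419739_at had another profile. It read 7.55 and 7.63 in confluent control, against 8.45 and 8.59 in low-density control, a difference of -0.93 ± 0.10 (adjusted p = 2.2e-05) where the lead stood at 0.00. With Tead2-EnR it was at -0.09 (adjusted p = 0.56), and in Tead2-VP16 cells it fell by 1.07 at confluency against high density (adjusted p = 1.1e-04). The 1449577_x_at probe set was 0.37 lower in confluent than in low-density control (adjusted p = 0.011 by limma), a call lost without the second confluent control array. A name ending in x_at marks a probe set that may also bind related transcripts, and tropomyosin genes resemble each other.

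**Figure D2:**
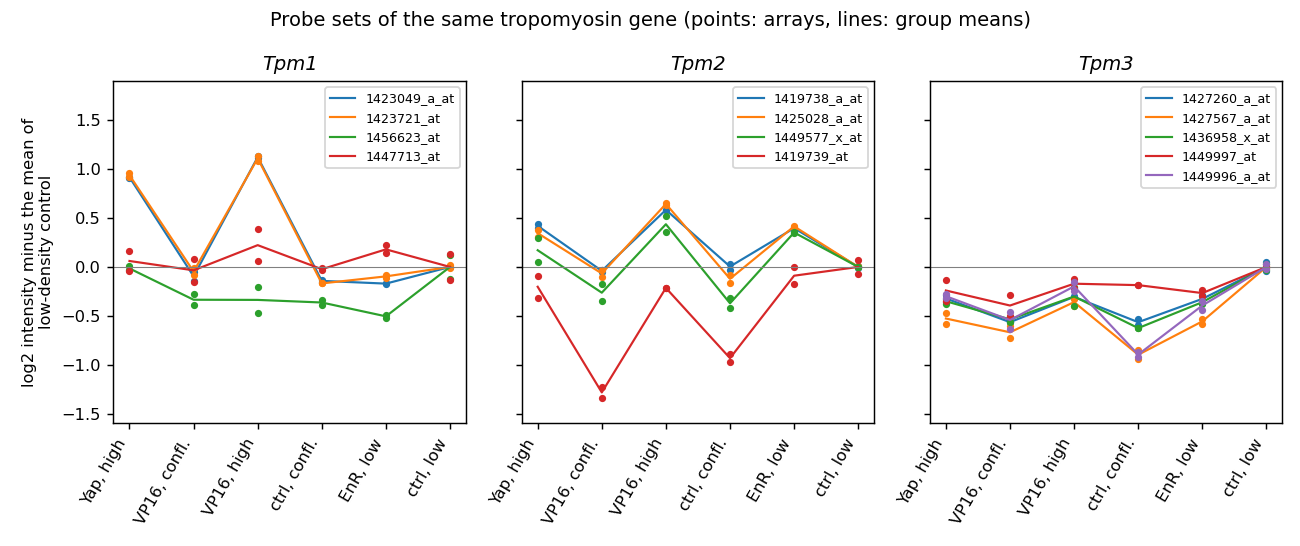
Log2 intensity of each probe set of Tpm1, Tpm2 and Tpm3 minus its mean in low-density control (vertical axis) in the 6 groups, with points for arrays and lines through group means. In the high-density groups the 2 bright Tpm1 probe sets lie above the 2 dim ones, Tpm2 probe set 1419739_at is at -0.93 in confluent control while the lead is at 0.00, and the Tpm3 group means all lie below low-density control.

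Tpm3, a source of short cytoskeletal isoforms, was highest in sparse control cells. Its lead (1427260_a_at) read 12.25 and 12.18 with Yap, 12.22 and 12.24 with Tead2-VP16 at high density, 11.97 on both arrays with Tead2-VP16 at confluency, 12.17 and 12.25 with Tead2-EnR, 12.004 and 11.94 in confluent control, and 12.58 and 12.49 in low-density control. The groups formed 3 steps, with low-density control on top, the high-density and Tead2-EnR groups between, and both confluent groups at the bottom. Confluent minus low-density control was -0.56 on the lead (adjusted p = 5.5e-05), -0.90 on 1427567_a_at, -0.63 on 1436958_x_at and -0.90 on 1449996_a_at, and these 4 were called. Tead2-EnR minus low-density control was called on the same 4, between -0.56 and -0.33. The remaining probe set, 1449997_at, was at -0.27 with Tead2-EnR (adjusted p = 0.055) and was called by limma in 0 of the 9 comparisons, with an unadjusted p under 0.05 in 4. With Yap the lead was 0.24 above confluent control (adjusted p = 0.030) and with Tead2-VP16 at high density 0.26 (adjusted p = 0.021). Both calls were lost when any one of the 4 arrays compared was left out (0.069 to 0.179 with Yap, 0.056 to 0.124 with Tead2-VP16). Against low-density control the lead was at -0.32 with Yap and -0.31 with Tead2-VP16 at high density, both called.

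Tpm4, a short isoform gene linked to stress fibre assembly, was lower in confluent than in low-density control and was highest in the high-density cells. It read 12.71 and 12.70 with Yap, 12.64 and 12.72 with Tead2-VP16 at high density, 11.92 and 11.95 with Tead2-VP16 at confluency, 12.22 and 12.28 with Tead2-EnR, 11.71 and 11.75 in confluent control, and 12.47 and 12.48 in low-density control. The 2 confluent groups were lowest and did not overlap with any other. Confluent minus low-density control was -0.75 ± 0.06 (adjusted p = 3.5e-06), a 1.68-fold lower level. Yap and Tead2-VP16 at high density were 1.97-fold and 1.93-fold above confluent control (adjusted p = 7.2e-06 and 7.3e-06). Tead2-VP16 cells at confluency were at -0.74 against the same cells at high density (adjusted p = 6.5e-05). Tead2-EnR was at -0.23 against low-density control (adjusted p = 0.017), and this call was lost without either low-density control array or the first Tead2-EnR array (0.059 to 0.097). Yap exceeded low-density control by 0.23 (adjusted p = 0.014), lost without any one of the 4 arrays (0.051 to 0.067). Tead2-VP16 at high density exceeded it by 0.21 (adjusted p = 0.024), lost without either low-density control array or the second Tead2-VP16 one (0.076 to 0.140).

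Fhl1, which encodes a LIM protein of muscle and stress fibres, showed the widest range of the 9 genes. Its lead (1417872_at) read 8.94 and 8.93 with Yap, 7.76 and 7.75 with Tead2-VP16 at high density, 5.59 and 5.76 with Tead2-VP16 at confluency, 9.24 and 9.18 with Tead2-EnR, 6.27 and 6.25 in confluent control, and 9.15 and 9.07 in low-density control. No 2 groups overlapped. Confluent control was 7.23-fold below low-density control (log2 -2.85 ± 0.07, adjusted p = 1.9e-09), and Yap was 6.41-fold above confluent control (2.68, adjusted p = 6.4e-08). Yap exceeded Tead2-VP16 at high density by 1.18 (interval 1.03 to 1.34, adjusted p = 1.7e-04), the one lead probe set of the 9 genes called between those groups. At confluency Tead2-VP16 cells were at -0.59 against control (adjusted p = 0.0014). Tead2-EnR and low-density control differed by 0.09 (interval -0.06 to 0.25, adjusted p = 0.39), and Yap and low-density control by -0.17 (adjusted p = 0.090). The second Fhl1 probe set, 1459003_at, was dim, with all arrays between 4.15 and 4.36, and was called by limma in 0 of the 9 comparisons, with an unadjusted p under 0.05 in 0.

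Fhl2, a LIM protein that shuttles between focal adhesions and the nucleus and acts as a transcriptional cofactor, was lower with Tead2-EnR than in low-density control and higher with Tead2-VP16 at confluency than in confluent control. It read 9.97 and 10.04 with Yap, 9.91 and 9.88 with Tead2-VP16 at high density, 10.48 and 10.51 with Tead2-VP16 at confluency, 9.52 and 9.38 with Tead2-EnR, 9.73 and 9.76 in confluent control, and 10.51 and 10.57 in low-density control. Tead2-VP16 at confluency and low-density control overlapped at the top, and Tead2-EnR was lowest. Fhl2 was 2.12-fold lower with Tead2-EnR than in low-density control (log2 -1.09 ± 0.07, adjusted p = 2.2e-06). It was 1.69-fold higher with Tead2-VP16 at confluency than in confluent control (0.75, adjusted p = 2.7e-04). Confluent control was at -0.79 against low-density control (adjusted p = 5.5e-06). In Tead2-VP16 cells Fhl2 was 0.61 higher at confluency than at high density (adjusted p = 3.8e-04), the one member lead called higher in that comparison. The steps start from different densities, low in control and high in Tead2-VP16 cells, so they cannot be set against each other. With Yap it was 0.26 above confluent control (adjusted p = 0.025), lost without any one of the 4 arrays compared (0.069 to 0.149), and with Tead2-VP16 at high density it was at 0.15 (adjusted p = 0.18).

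Fhl3, known from muscle and as a partner of actin filaments, was highest in sparse control cells. It read 8.14 and 8.02 with Yap, 7.64 and 7.95 with Tead2-VP16 at high density, 7.64 and 7.39 with Tead2-VP16 at confluency, 7.94 and 7.95 with Tead2-EnR, 7.77 and 7.69 in confluent control, and 8.54 and 8.64 in low-density control. Low-density control stood above all other arrays, while several of the other groups overlapped. Confluent control was at -0.85 ± 0.11 (adjusted p = 1.3e-04) and Tead2-EnR at -0.64 (adjusted p = 0.0017) against low-density control. Yap was 0.35 above confluent control (adjusted p = 0.063, and 0.012 to 0.045 in the 6 of 8 other settings that called it) and Tead2-VP16 at high density 0.06 (adjusted p = 0.79). Below low-density control the order ran Yap, Tead2-EnR, Tead2-VP16 at high density, confluent control and Tead2-VP16 at confluency, and none of its 4 steps, between 0.06 and 0.22, passed the test.

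Csrp1, a LIM protein of smooth muscle and fibroblast actin bundles, was not called between the control densities. It was higher with Tead2-EnR than in low-density control. Its lead (1425811_a_at) read 11.96 and 11.98 with Yap, 12.12 and 12.16 with Tead2-VP16 at high density, 11.00 on both arrays with Tead2-VP16 at confluency, 12.27 and 12.30 with Tead2-EnR, 10.99 and 11.06 in confluent control, and 10.95 and 10.99 in low-density control. The arrays of Yap, Tead2-VP16 at high density and Tead2-EnR lay at 11.96 or above, and those of the other groups at 11.06 or below. Tead2-EnR was 2.49-fold above control at low density (log2 1.31 ± 0.06, adjusted p = 2.9e-07). Tead2-VP16 at high density was 2.17-fold and Yap 1.93-fold above confluent control (adjusted p = 2.5e-06 and 7.6e-06). The difference between confluent and low-density control was 0.05 (interval -0.08 to 0.19), and that between Tead2-VP16 and control at confluency -0.02 (interval -0.15 to 0.11). The other probe set, 1425810_a_at, gave 1.29 for Tead2-EnR and 0.96 for Yap.

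Csrp2, a relative known from vascular smooth muscle, was higher in both high-density groups and was not called with Tead2-EnR. It read 11.35 and 11.41 with Yap, 11.28 and 11.24 with Tead2-VP16 at high density, 10.29 and 10.32 with Tead2-VP16 at confluency, 10.41 and 10.45 with Tead2-EnR, 10.39 and 10.33 in confluent control, and 10.50 and 10.55 in low-density control. The 4 high-density arrays lay above the other 8. Yap was 2.03-fold and Tead2-VP16 at high density 1.87-fold above confluent control (adjusted p = 5.7e-06 and 1.0e-05), and they exceeded low-density control by 0.85 and 0.73. Tead2-EnR was at -0.10 against low-density control (interval -0.23 to 0.04, adjusted p = 0.30). In confluent control it was -0.17 against low-density control (adjusted p = 0.052), which 5 of 8 other settings called (0.0040 to 0.024).

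**Figure D3:**
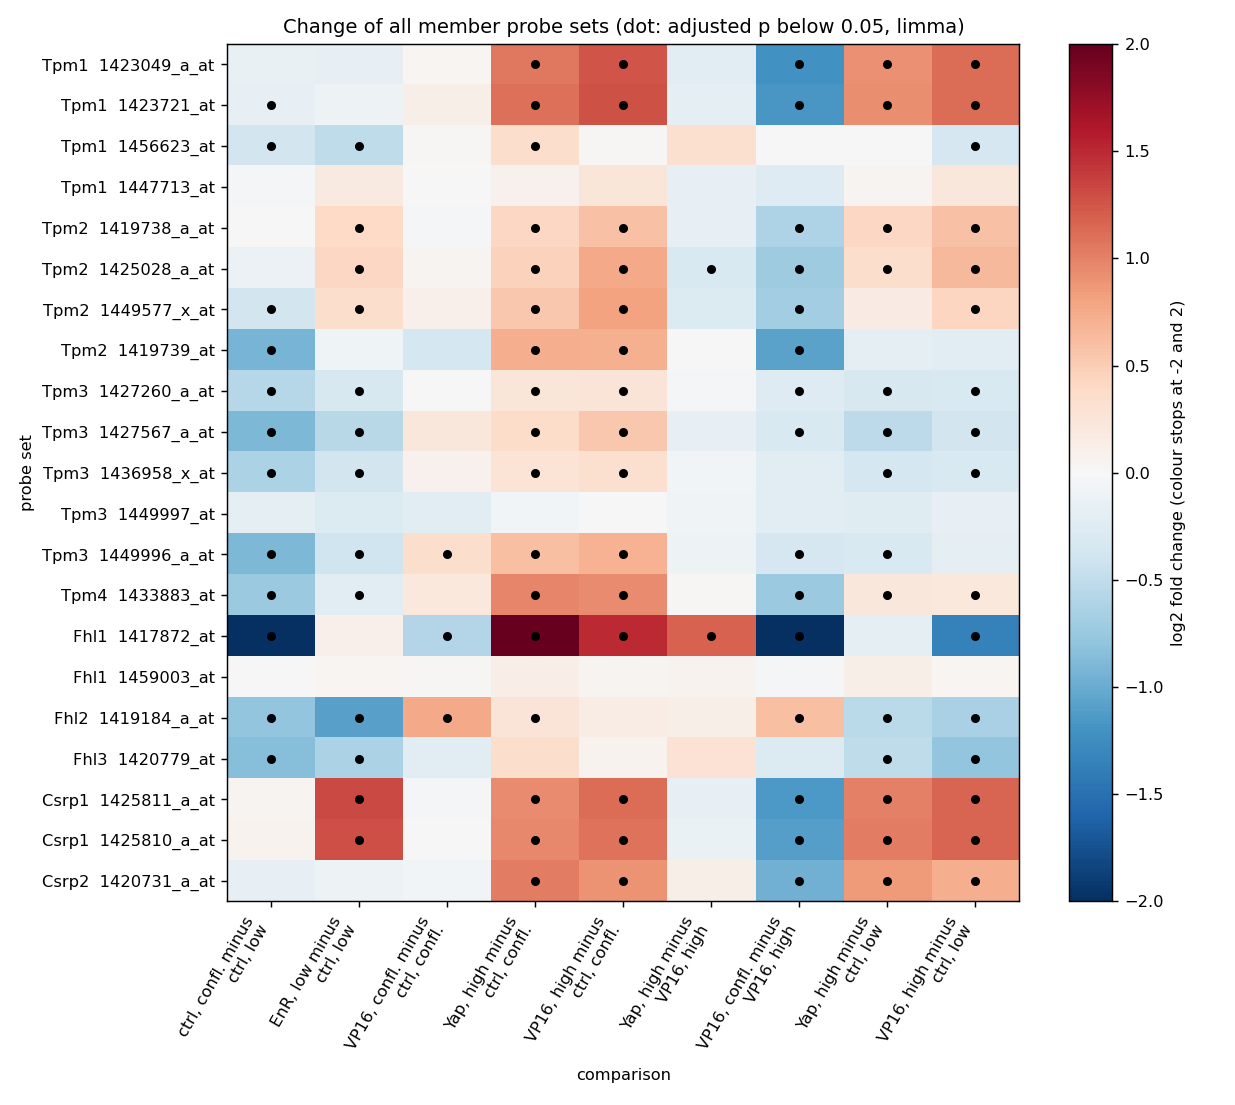
Log2 fold change (colour, red higher and blue lower in the first-named group) of the 21 probe sets (rows) in the 9 comparisons (columns), with a dot where limma's adjusted p was below 0.05. Columns for Yap and Tead2-VP16 at high density against confluent control are red in all 17 and 15 called cells, and that for Tead2-VP16 at confluency against control holds 3 dots.

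No member was called higher in confluent than in low-density control. Between confluent and low-density control, 12 of 21 probe sets were lower and 0 higher by limma (14 and 0 at an unadjusted p under 0.05), beside 38.8% of all probe sets called either way, 18.6% lower and 20.2% higher. The members' median was -0.36 and that of all probe sets -0.02. By family, 9 of 14 tropomyosin probe sets and 3 of 4 FHL probe sets fell, and 0 of 3 CSRP probe sets were called, with 1 lower at an unadjusted p under 0.05. Among the leads, the FHL genes all fell, with Tpm3 and Tpm4.

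Members differed in both directions between Tead2-EnR cells and low-density control. Of the 21 probe sets 5 were higher and 8 lower, beside 27.5% of all probe sets called, 13.6% higher and 13.9% lower. The higher ones were 3 of Tpm2 and both of Csrp1, and the lower ones 4 of Tpm3 and 1 each of Tpm1, Tpm4, Fhl2 and Fhl3. The members' median was -0.10, and -0.02 over all probe sets.

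Few members differed between Tead2-VP16 cells at complete confluency and confluent control. There were 2 higher, Fhl2 and Tpm3 probe set 1449996_a_at, and 1 lower, Fhl1, beside 5.22% of all probe sets called, 2.75% higher and 2.48% lower. The Tpm3 value of 0.35 (adjusted p = 0.030) was lost without either Yap array, either confluent control array or the second Tead2-VP16 array (0.051 to 0.160). The median was 0.03 for the members and -0.02 for all probe sets.

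At high density most member probe sets were higher than in confluent control. With Yap 17 of 21 probe sets rose and 0 fell by limma (18 and 0 at an unadjusted p under 0.05), beside 17.2% of all probe sets called, 8.09% higher and 9.13% lower, and the members' median was 0.47, against 0.01 for all. With Tead2-VP16 15 rose and 0 fell (15 and 0 unadjusted), beside 18.7% of all called, 8.92% higher and 9.8% lower, and the median was 0.70, against 0.004 for all. Probe sets of one gene are not separate results. As the members were chosen with earlier results of these data known, these counts do not test the families. By lead probe set, 8 of 9 genes were higher with Yap and 7 of 9 with Tead2-VP16, beside 9.61% and 11.4% of all genes. Among these, the Tpm3 and Fhl2 calls with Yap, and the Tpm3 call with Tead2-VP16, were lost when any array of the groups compared was left out. The comparisons share the confluent control arrays. Without the first Yap array the Yap count was 12. Between Yap and Tead2-VP16 at high density 2 of 21 were called, beside 1.73% of all probe sets (1.12% higher and 0.611% lower), namely Fhl1 higher and Tpm2 probe set 1425028_a_at lower with Yap (-0.30, adjusted p = 0.047). The Tpm2 call was lost when any array was left out (0.063 to 0.270). For the other 8 leads the interval of the Yap minus Tead2-VP16 difference reached at most 0.54, for Fhl3, and at least -0.34, for Tpm1.

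Within Tead2-VP16 cells 14 of 21 probe sets were lower at confluency than at high density and 1, Fhl2, was higher. Of all probe sets 16.3% were called, 8% lower and 8.26% higher. The Tpm3 lead's call there (-0.26, adjusted p = 0.025) was lost without any one of the 4 arrays compared (0.092 to 0.103). The members' median was -0.62, against -0.02. Against low-density control, Yap had 8 probe sets higher and 6 lower (17.3% and 15.6% of all, 32.9% together), and Tead2-VP16 at high density 9 higher and 7 lower (16.7% and 15.9% of all, 32.6% together). Both CSRP genes and the leads of Tpm1, Tpm2 and Tpm4 made up the higher leads in both, and Tpm3, Fhl2 and Fhl3 the lower ones, joined by Fhl1 with Tead2-VP16. For Tpm2, probe set 1425028_a_at was also called higher in both, and 1449577_x_at with Tead2-VP16 (0.44) but not with Yap (0.17). Probe set 1419739_at was at -0.20 with Yap and -0.21 with Tead2-VP16, neither called.

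**Figure D4:**
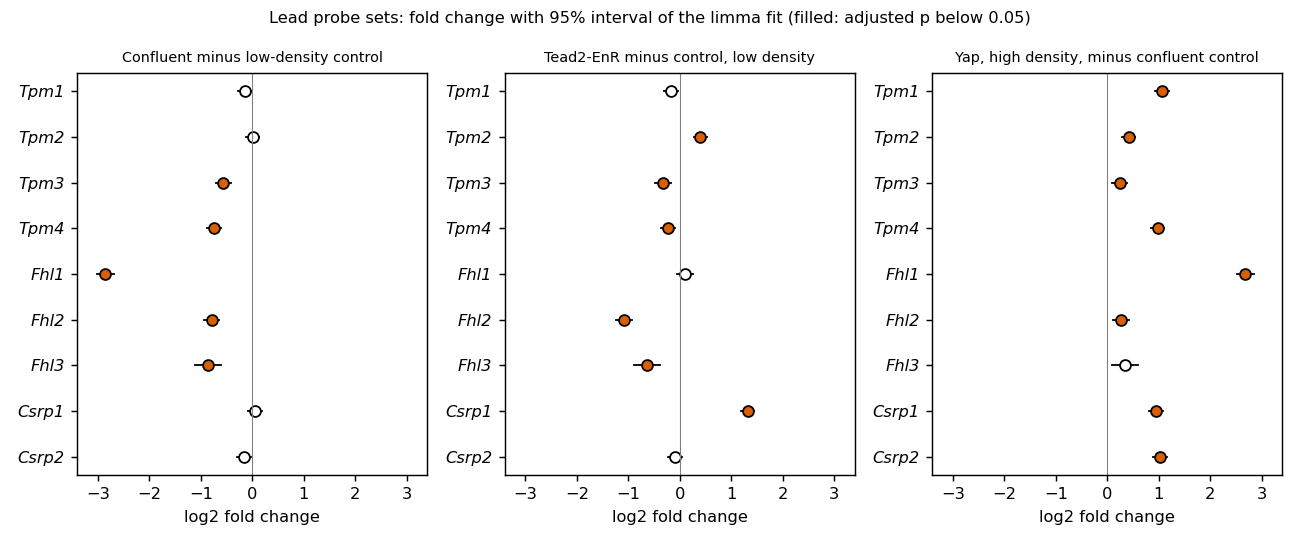
Log2 fold change of the 9 lead probe sets (points, filled where limma's adjusted p was below 0.05) with the 95% interval of the fit (bars) for confluent minus low-density control, Tead2-EnR minus control at low density, and Yap at high density minus confluent control. Fhl1 has the largest value in the first panel (-2.85) and the third (2.68) and is near 0 in the second, where Csrp1 is at 1.31 and Fhl2 at -1.09.

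Actin filament genes that work beside tropomyosin were read from a list of 25, all measured, by the lead probe set of each gene. This list too was chosen with earlier results of these data known, so its counts are a description. With Yap 12 rose and 0 fell against confluent control by limma (16 and 2 at an unadjusted p under 0.05), with a median of 0.32, beside 9.61% higher and 12.4% lower over all genes. For Tead2-VP16 at high density 14 rose and 0 fell (15 and 2 unadjusted), with a median of 0.41, beside 11.4% higher and 11.9% lower. The median over all genes was 0.00 and 0.01 in these comparisons. In both, the smallest adjusted p belonged to Tagln, an actin-binding protein of smooth muscle (2.49 and 2.66), Acta2, smooth muscle actin (1.68 and 1.998), Acta1, skeletal actin (1.96 and 2.03), and Actn1, an actin crosslinker (0.97 and 1.07). Between confluent and low-density control 2 rose and 12 fell (median -0.22), beside 24.9% and 21.4% of all genes, with Tagln at -1.48, Tagln2 at -1.27 and Acta2 at -1.03. With Tead2-EnR 1 was higher and 6 were lower than in low-density control (18.4% and 16% of all genes). The median was -0.10, with Actn1 at -0.83 and Acta2 at -0.52. Against confluent control, 5 were higher and 0 lower in Tead2-VP16 cells at confluency (7 and 2 unadjusted, 3.35% and 3.14% of all genes). Their median was 0.08, with Acta2 at 0.94 and the calponin Cnn2 at 0.44. Over all genes the median was -0.01 in each of these last 3 comparisons. The summed intensity of the 4 smooth muscle markers, of which 3 were above the median, was 707.7 to 720.7 with Yap, 823.8 to 880.7 with Tead2-VP16 at high density and 986.4 to 1009 in confluent control. By call against confluent control, 1 of them was higher and 1 lower with Yap (median -0.03). With Tead2-VP16 at high density 2 were higher and 1 was lower (median 0.12). The summed intensity of the 8 striated muscle markers was 532.0 to 570.7 with Yap, 572.01 to 605.2 with Tead2-VP16 at high density and 420.5 to 428.6 in confluent control, and includes Acta1. Their part in the results was not tested.

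Myosin genes and other LIM genes moved in both directions. Of 11 measured actomyosin genes 3 rose and 5 fell with Yap against confluent control (median -0.06), beside 9.61% and 12.4% of all genes, with Myl9, a regulatory light chain, at 0.72 and Myh10, a non-muscle heavy chain, at -0.71. Mylk, the kinase of that light chain, was 2.64 higher in confluent than in low-density control and 2.18 higher with Tead2-EnR than in control. Of 31 measured LIM genes outside the 2 families, 9 were higher and 12 were lower in confluent than in low-density control (median -0.08), beside 24.9% and 21.4% of all genes, with Pdlim2 at 1.69, Pdlim1 at -1.18 and Tes at -1.32. With Yap 6 rose and 4 fell against confluent control (median 0.04), beside 9.61% and 12.4%. With Tead2-EnR 9 rose and 8 fell (median 0.03), beside 18.4% and 16%, with Pdlim1 at -0.90 and Zyx, zyxin, at -0.63. With Tead2-VP16 at confluency 7 were higher and 1 was lower than in confluent control (median 0.08), beside 3.35% and 3.14%. Among the 7 were Ajuba (1.04) and Wtip (0.66), both LIM proteins that bind the Hippo kinase Lats.

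Of 8 genes for SRF and its cofactors, 2 were higher and 1 lower in confluent than in low-density control, beside 24.9% and 21.4% of all genes. Srf itself was at -1.58 there and at -0.88 with Tead2-EnR against low-density control. It was 0.38 and 0.56 higher with Yap and Tead2-VP16 at high density than in confluent control, and all 4 values were called. Its coactivators Mrtfb and Mrtfa were 0.71 and 0.41 higher in confluent than in low-density control. Ccn2, a known target of Yap and Tead, was 3.23 and 2.33 higher with Yap and Tead2-VP16 at high density than in confluent control, at -0.61 with Tead2-EnR against low-density control, and at 0.12 with Tead2-VP16 at confluency against confluent control (adjusted p = 0.63). Ankrd1, another such target, was at 0.88, 0.61, -2.01 and 0.78 in these 4 comparisons, all called. Ccn1, also read as a check, was called in all 4 in the same directions as Ankrd1.

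Likeness of profile was described by Pearson's r over the 12 arrays, which fall into 6 pairs, among 2382 genes whose group means spanned at least 1 log2 unit and rose above the median lead. Tpm1 was most like Vcl, vinculin (r = 0.9755), Ltbp2 (0.974) and Fkbp11 (0.973), and Csrp2 most like Acta1 (0.972), Vdr (0.966) and Vcl (0.958). Fhl1 was most like Lss (0.989), Nsdhl (0.985) and Cyp51 (0.985), Fhl2 most like Cavin2 (0.954), Trib3 (0.941) and Rassf5 (0.935), Fhl3 most like Syncrip (0.961), Spire1 (0.952) and Elac2 (0.939), and Csrp1 most like C1galt1 (0.968), Smad6 (0.961) and Pxylp1 (0.924). The leads of Tpm2, Tpm3 and Tpm4 spanned under 1 log2 unit and were not matched. Among the members, the lead of Tpm1 tracked Csrp2 (r = 0.971), that of Tpm2 tracked Csrp1 (0.953) and that of Tpm3 tracked Fhl3 (0.898), while Fhl2 and Csrp1 had r = -0.679, although both were called higher with Yap than in confluent control.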

How the data were processed

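Gene expression was measured on 12 Affymetrix arrays in 6 groups of 2, and groups were taken from the sample titles. The deposited values are probe set intensities, and per the submitters' processing notes they came from RMA, with no version given. The values ran from 3.77 to 25980, on a linear scale although RMA gives log2, so log2 of the deposited intensity was taken first. Detection calls were not used. Precision is limited by having 2 arrays a group. Array medians lay between 51.9 and 53.7.

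All 45037 non-control probe sets of the 12 arrays were fitted with 1 mean per group by limma 3.58.1 in R 4.3.3 (degrees of freedom 6 residual plus 3.69 prior), two-sided, with Benjamini-Hochberg adjustment over probe sets within each of 9 comparisons. No filter was applied. The fit was tested on data simulated with independent noise per array, so that test does not bear on arrays that may be technical replicates. Figures used matplotlib 3.10.9 in Python 3.11.15. Named genes were the 9 members, up to 4 called genes per list with the smallest adjusted p, Tead2, Yap1, Ccn1, Ccn2 and Ankrd1 as checks, and 3 genes of like profile per member spanning at least 1 log2 unit. Members and lists were chosen with earlier results of these data known. Arrays with the same replicate number deviated together with r between -0.08 and 0.10 over 15 pairs of groups, so the numbers were not taken to pair them. Epithelial, endothelial and smooth muscle markers were also listed, with 3 of 4, 1 of 3 and 3 of 4 above the median probe set.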

Additional observations from a re-analysis of the deposited data

How the results depend on the processing

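Direction and call were compared for the 9 lead probe sets in 9 comparisons, and the count of called probe sets in each comparison. Of 107 calls over the 21 probe sets, 85 held with each array left out in turn and 22 were lost at least once, as named above for those described. With the replicate number as a block, all 81 values of the leads kept direction and call, and the counts became 11 in place of 12 between the control densities, 16 in place of 17 for Yap against confluent control, and 1 in place of 2 for Yap minus Tead2-VP16 at high density. This last count became 1 with the replicate block, 1 with quantile normalization repeated, 1 with the 4 arrays of the comparison alone, 6 with a variance trend and robust prior, and 1 with any one array left out. The count of 3 for Tead2-VP16 against control at confluency became 6 with probe sets above the median level, 6 with log2(value + 16) and 7 with the variance trend. Across 8 settings other than leaving arrays out, 11 lead values gained a call and 7 lost it, these 7 with the 4 arrays of the comparison alone (adjusted p 0.061 to 0.111). Tpm4 in Tead2-VP16 against control at confluency (0.21, adjusted p = 0.087) gained it under 5 settings (7.6e-04 to 0.044). With arrays centred on their medians, 68.5% of all probe sets called in that comparison were higher, against 52.6% as deposited.

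Sign changes occurred in 7 lead values that were not called. For Tead2-VP16 against control at confluency, Tpm3 was -0.036 with quantile normalization repeated and -0.032 to 0.033 with single arrays left out, Csrp1 was 0.020 with arrays centred and -0.060 to 0.015 with arrays left out, and Tpm1 was -0.0011 to 0.094 with arrays left out. Between the control densities Tpm2 was -0.036 with arrays centred and -0.026 to 0.035 with arrays left out. Between Yap and Tead2-VP16 at high density, Tpm4 was -0.0033 with arrays centred and -0.012 to 0.061 with arrays left out, and Tpm3 was -0.054 to 0.022 with arrays left out. Fhl3 in Tead2-VP16 at high density against confluent control was -0.089 to 0.21 with arrays left out. The cause was not tested.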
